A study of Mus musculus with 20 samples.

Results

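The enzymes that make serine and that pass its carbon into the folate cycle were examined in whole hearts of mice with iron-deficiency anemia (IDA). The 9 genes *Phgdh*, *Psat1*, *Psph*, *Shmt1*, *Shmt2*, *Mthfd1*, *Mthfd1l*, *Mthfd2* and *Mthfd2l* were taken by name from a table of 23420 genes, and each of the 9 had 1 entry. Messenger RNA was sequenced from hearts of wild type male C57BL/6 mice (C57BL/6J in the study's methods) aged 9 weeks, 10 fed a control diet and 10 fed an iron-deficient diet. The diets began at 3 weeks of age and lasted 6 weeks, and the labels disagree on the iron content of the deficient diet. No drug or genetic change was given to either group.

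Serine is made from the glycolytic intermediate 3-phosphoglycerate by the enzymes PHGDH, PSAT1 and PSPH in turn. Serine hydroxymethyltransferase, SHMT1 in the cytosol and SHMT2 in mitochondria, splits serine into glycine and a one-carbon unit carried by tetrahydrofolate. In mitochondria, MTHFD2 or MTHFD2L oxidizes that unit and MTHFD1L releases it as formate, and the cytosolic enzyme MTHFD1 takes formate up again for the synthesis of purines, thymidylate and methionine. Several of these genes, among them *Phgdh*, *Psat1*, *Shmt2* and *Mthfd2*, are known targets of the stress-induced transcription factor ATF4, and *Mthfd2* is best known from embryonic and proliferating cells.

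The enzymes split into those that were higher in IDA hearts and those for which no difference was detected, with 1 exception. *Phgdh*, *Psph*, *Shmt2*, *Mthfd1l* and *Mthfd2* were higher, *Mthfd2l* was lower, and *Psat1*, *Shmt1* and *Mthfd1* did not pass the test. The changes were largest in genes with few reads, at 1.85-fold for *Phgdh* and 1.67-fold for *Mthfd2*, and were 1.14-fold in *Shmt2*, the most abundant of the 9. Calls rest on edgeR's quasi-likelihood test at a Benjamini-Hochberg adjusted p below 0.05 over all 13590 genes that reached 1 CPM (read pairs on the gene per 1000000 counted in that mouse) in at least 10 mice. All 9 enzymes passed that filter, so 6 of 9 were called (5 higher, 1 lower). Most of the genome moved by the same rule, with 67.5% of tested genes called, 35.0% higher and 32.5% lower, so that a share of 6 in 9 is close to the background.

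Depth ranged from 6682177 to 8960688 read pairs on genes in a mouse, with a median of 7902932 in control and 6806177 in IDA mice. Fold changes over all tested genes fell with gene length, from a median log2 value of 0.34 in the shortest 10% of genes (median 881 bp of exons) to -0.53 in the longest 10% (7761 bp). For this reason each enzyme is also given after a smooth trend on gene length was removed from every mouse, called here the gene length correction. With it, 55.0% of tested genes were called, and 5 of the 9 enzymes. What lies behind the trend was not tested. The library of IDA mouse 4 stood apart from its group. In it, 51 genes were more than 2-fold above every other IDA mouse, against 0 to 8 such genes in each of the other IDA mice and 0 to 15 in the control mice, and results that turn on it are given with and without it. All 10 cardiomyocyte markers examined were detected and tested, with summed levels of 5209 to 6205 CPM in control and 4705 to 6439 CPM in IDA hearts, IDA mouse 4 being the lowest. Of these markers 5 were higher and 1 lower in IDA, and 3 were higher and 6 lower with the gene length correction.

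Of the 3 genes with the largest changes, *Phgdh*, *Mthfd2* and *Mthfd1l*, the promoter windows are shown to give the sequence beside the readout. Each runs from 250 bases before to 50 bases after the RefSeq start (build GRCm38.p6, the assembly behind mm10) and is written 5′ to 3′ on the strand of the gene. *Phgdh* lies on the minus strand at chr3:98339920-98340219, *Mthfd2* on the minus strand at chr6:83317555-83317854, and *Mthfd1l* on the plus strand at chr10:3972825-3973124. Capitals mark matches to the searched motifs.
Phgdh: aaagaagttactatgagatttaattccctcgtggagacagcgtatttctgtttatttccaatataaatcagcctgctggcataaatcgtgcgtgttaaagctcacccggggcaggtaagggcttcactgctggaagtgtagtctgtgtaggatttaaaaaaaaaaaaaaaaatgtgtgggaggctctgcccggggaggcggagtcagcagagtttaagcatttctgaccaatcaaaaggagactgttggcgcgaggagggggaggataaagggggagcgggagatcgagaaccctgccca
Mthfd2: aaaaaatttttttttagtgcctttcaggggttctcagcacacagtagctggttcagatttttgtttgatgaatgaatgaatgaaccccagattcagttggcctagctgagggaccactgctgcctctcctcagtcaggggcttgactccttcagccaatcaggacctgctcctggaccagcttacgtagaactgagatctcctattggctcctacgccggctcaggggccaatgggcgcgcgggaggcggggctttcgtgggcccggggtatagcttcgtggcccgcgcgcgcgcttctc
Mthfd1l: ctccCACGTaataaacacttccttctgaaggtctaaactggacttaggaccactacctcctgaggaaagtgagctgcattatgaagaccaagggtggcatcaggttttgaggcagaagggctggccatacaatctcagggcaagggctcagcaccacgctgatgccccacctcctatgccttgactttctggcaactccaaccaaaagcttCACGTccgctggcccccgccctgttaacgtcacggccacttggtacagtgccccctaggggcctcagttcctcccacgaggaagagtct

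Both strands were searched for TGATGNAA, the core of the C/EBP-ATF composite element to which ATF4 binds, for the E-box CACGTG, and for ACGTG, the core of the hypoxia response element, which lies within the E-box. All 9 enzymes matched the RefSeq promoters, *Psat1* with 2 windows. TGATGNAA and CACGTG were in 0 of these 10 windows, against 3.97% and 7.15% of all 32851 promoter windows. ACGTG was found on the minus strand in *Mthfd1l*, with matches starting at positions -246 and -39 from the start site, on the plus strand in *Psph*, at position -153, and in the second *Psat1* window. Of all windows, 19.6% hold that core. These are letters in 300 bases only, and factor binding was not measured.

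**Figure D1:**
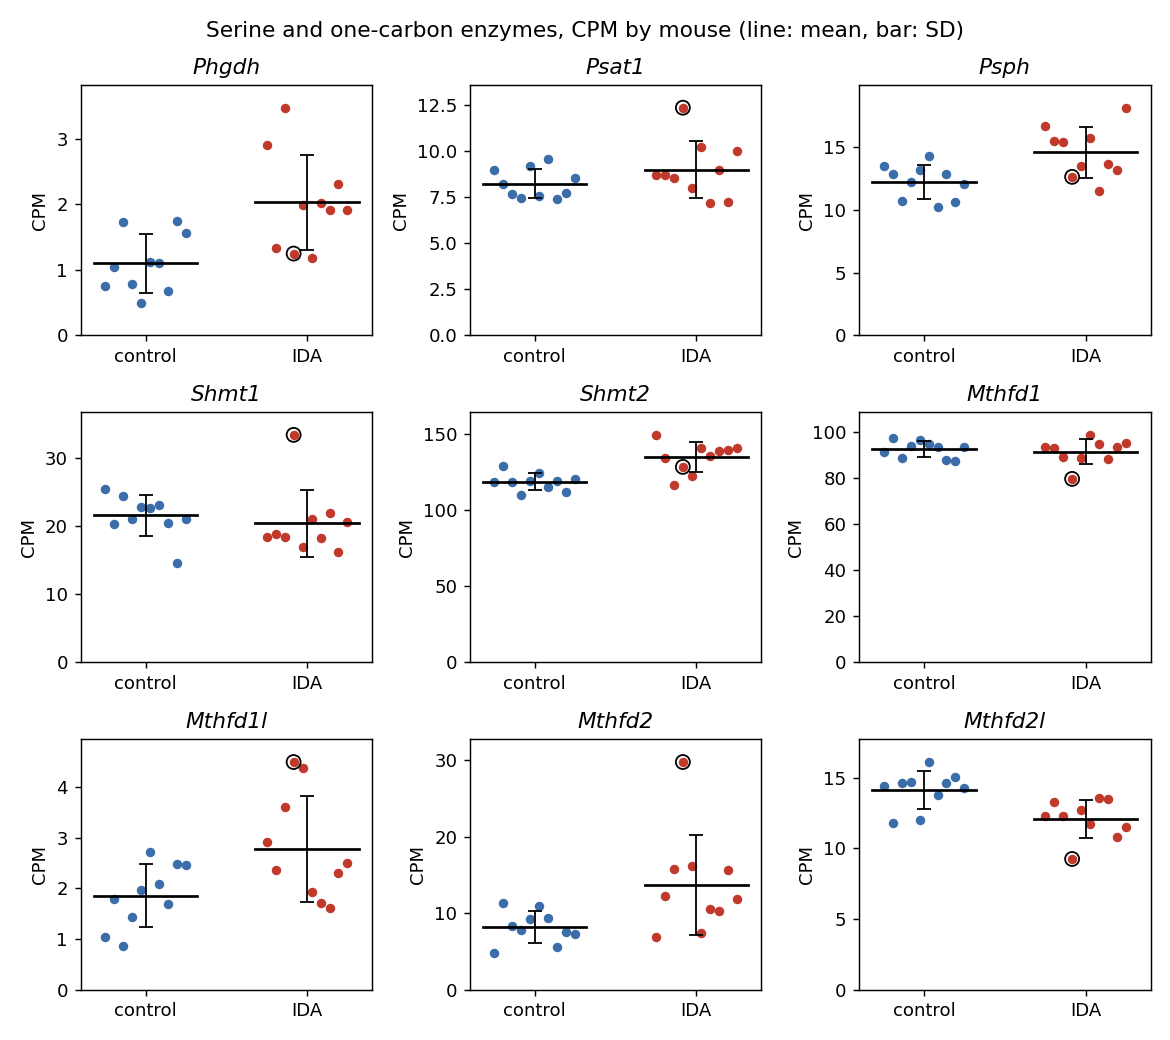
Normalized CPM (vertical axes, from 0) of each enzyme in every mouse, control in blue and IDA in red, with the mean (line) and SD (bar) of 10 mice per group. IDA mouse 4 is circled. It was the highest IDA mouse for *Psat1*, *Shmt1*, *Mthfd1l* and *Mthfd2*, with 29.7 CPM for *Mthfd2*.

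Levels per length of transcript placed the enzymes in a wide order. In control hearts *Shmt2* stood first at 51.5 ± 2.42 CPM per kb of exons (SD, n = 10), followed by *Mthfd1* at 27.8 ± 1.05, *Shmt1* at 10.5 ± 1.45 and *Psph* at 7.96 ± 0.879 CPM per kb. Below them came *Mthfd2l* at 6.30 ± 0.589, *Mthfd2* at 3.97 ± 1.02 and *Psat1* at 3.31 ± 0.320 CPM per kb. *Phgdh*, the entry step of serine synthesis, at 0.588 ± 0.239, and *Mthfd1l*, at 0.429 ± 0.143 CPM per kb, were at the 3.71 and 2.02 percentiles of tested genes on this scale. The ranges of *Shmt2*, *Mthfd1* and *Shmt1* did not overlap, nor did those of *Psat1* and *Phgdh*. Other neighbors in the order had overlapping ranges, although *Shmt1* was above *Psph*, and *Psph* above *Mthfd2l*, in 10 of 10 control mice. *Phgdh* and *Mthfd1l* could not be ordered, with *Phgdh* higher in 7 of 10. For 6 of the control mice *Phgdh* reached 1 CPM, against 10 of 10 IDA mice, so that it passed the filter in part through the group in which it was higher.

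The first and last steps of serine synthesis were higher in IDA hearts, and no difference was detected in the middle step. *Phgdh*, which encodes the dehydrogenase that commits 3-phosphoglycerate to serine, lies on chromosome 3 of mm10 from 98313171 to 98339969. Its lowest, median and highest values were 0.491, 1.08 and 1.74 CPM in control mice and 1.19, 1.96 and 3.48 CPM in IDA mice. Every IDA mouse exceeded the control mean, and 7 of 10 exceeded the highest control mouse. This is a log2 fold change of 0.89 (SE 0.24, edgeR quasi-likelihood adjusted p = 0.00216). These values rest on 4 to 14 read pairs per control mouse and 8 to 28 per IDA mouse. After the gene length correction it remained at 0.75 (adjusted p = 0.0102).

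*Psat1*, the aminotransferase of the pathway, on chromosome 19 from 15905123 to 15925059, had 7.43, 7.97 and 9.59 CPM in control mice (lowest, median and highest) and 7.17, 8.72 and 12.4 CPM in IDA mice. The IDA range enclosed the control range. Its log2 fold change was 0.13 with a 95% interval from -0.071 to 0.33 (edgeR adjusted p = 0.24), and without IDA mouse 4 it was 0.065. *Psph*, the phosphatase that releases serine, on chromosome 5 from 129765558 to 129787253, had 10.2, 12.5 and 14.3 CPM in control and 11.5, 14.5 and 18.1 CPM in IDA mice. The groups overlapped, with 9 of 10 IDA mice above the control mean. The log2 fold change of *Psph* was 0.25 (SE 0.09, edgeR quasi-likelihood adjusted p = 0.0121). This call was lost with the gene length correction (log2 fold change 0.052, adjusted p = 0.59) and with library size as a covariate (0.22, adjusted p = 0.0714).

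The mitochondrial serine hydroxymethyltransferase was higher in IDA hearts and no difference was detected in the cytosolic one. *Shmt2*, on chromosome 10 from 127517123 to 127522444, had 109.8, 118.9 and 129.0 CPM in control mice (lowest, median and highest) and 116.4, 137.6 and 149.7 CPM in IDA mice, of which 7 were above every control mouse. The log2 fold change was small, at 0.18 (SE 0.04, edgeR quasi-likelihood adjusted p = 0.000543), and its sign depended on the correction used. It was 0.12 with the gene length correction (adjusted p = 0.0154). When GC content was corrected together with length, an alternative chosen after seeing the data, it was -0.057 (adjusted p = 0.19).

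The last 34 bases of *Shmt2* in the direction of transcription, chromosome 10 positions 127517123 to 127517156, are also exon of *Ndufa4l2*, which runs toward it on the opposite strand. This is 1.48% of the exonic length of *Shmt2*. The counting ignored strand and, by the command in the file, did not assign a read pair to several genes, so that by default pairs touching exons of both count for neither. *Ndufa4l2* itself, which encodes a mitochondrial protein known to respond to hypoxia, rose from 44.7 ± 4.27 to 67.6 ± 5.36 CPM (SD, n = 10 each, log2 fold change 0.60, edgeR adjusted p = 1.65e-07). Its log2 fold change was 0.30 with the gene length correction and 0.13 with GC content corrected as well. The part of this overlap in the value of *Shmt2* was not tested.

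*Shmt1*, on chromosome 11 from 60788897 to 60811265, had 14.6, 21.9 and 25.5 CPM in control mice and 16.2, 18.6 and 33.4 CPM in IDA mice. The value of 33.4 CPM was that of IDA mouse 4, and the next IDA mouse had 21.9 CPM. Although 8 of 10 IDA mice lay below the control mean, the log2 fold change was -0.079 with a 95% interval from -0.31 to 0.15 (edgeR adjusted p = 0.54). Without IDA mouse 4 it was -0.19 (adjusted p = 0.0553).

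In the folate branch, the changes lay in the mitochondrial enzymes. *Mthfd2*, a bifunctional dehydrogenase and cyclohydrolase of mitochondria, lies on chromosome 6 from 83305704 to 83317604. It had 4.80, 8.06 and 11.3 CPM in control mice (lowest, median and highest) and 6.88, 12.0 and 29.7 CPM in IDA mice. Of the IDA mice, 6 were above every control mouse, and IDA mice 1 and 6, at 6.88 and 7.41 CPM, were below the control mean. The log2 fold change was 0.74 (SE 0.21, edgeR quasi-likelihood adjusted p = 0.00421), and the spread between IDA mice was wide, with a coefficient of variation of 47.9% against 25.6% in control mice. Much of that spread came from IDA mouse 4. The other 9 IDA mice had 11.9 ± 3.47 CPM, against 8.21 ± 2.10 CPM in control mice (SD). Without IDA mouse 4 the log2 fold change was 0.53 (adjusted p = 0.0091), and with the gene length correction 0.64 (adjusted p = 0.0138).

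*Mthfd2l*, the paralog of *Mthfd2* in mitochondria of adult tissues, on chromosome 5 from 90931196 to 91021370, was the exception in direction. Control mice had 11.8, 14.5 and 16.1 CPM and IDA mice 9.25, 12.3 and 13.6 CPM. All 10 IDA mice were below the control mean, and 4 were below every control mouse. The log2 fold change was -0.23 (SE 0.08, edgeR quasi-likelihood adjusted p = 0.0124) and -0.30 with the gene length correction (adjusted p = 0.00214). With GC content corrected as well it was -0.050 (adjusted p = 0.58), and the transcript of *Mthfd2l* had the lowest GC content of the 9, at 40.1% against 48.4% to 57.4%.

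*Mthfd1l*, the mitochondrial formate-tetrahydrofolate ligase, on chromosome 10 from 3973075 to 4167081, had 0.867, 1.88 and 2.73 CPM in control mice and 1.62, 2.43 and 4.50 CPM in IDA mice. In IDA mice 3, 4 and 5 it reached 3.60, 4.50 and 4.37 CPM, and 4 of 10 IDA mice were above every control mouse. The log2 fold change was 0.58 (SE 0.22, edgeR quasi-likelihood adjusted p = 0.0222), on 6 to 22 read pairs per control mouse and 11 to 36 per IDA mouse. It was 0.81 with the gene length correction (adjusted p = 0.00321). The call was lost when IDA mouse 4 (0.48, adjusted p = 0.0526) or IDA mouse 5 (0.49, adjusted p = 0.0513) was left out.

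*Mthfd1*, the trifunctional cytosolic enzyme, on chromosome 12 from 76255232 to 76319820, was the least variable of the 9. It had 87.4, 93.5 and 97.3 CPM in control mice and 79.6, 93.2 and 98.7 CPM in IDA mice, the lowest being IDA mouse 4. The log2 fold change was -0.017 with a 95% interval from -0.093 to 0.060 (edgeR adjusted p = 0.70). With upper-quartile normalization and with the gene length correction its sign was positive (0.010 and 0.081), and without IDA mouse 4 it was 0.0041, and none of these values passed the test.

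**Figure D2:**
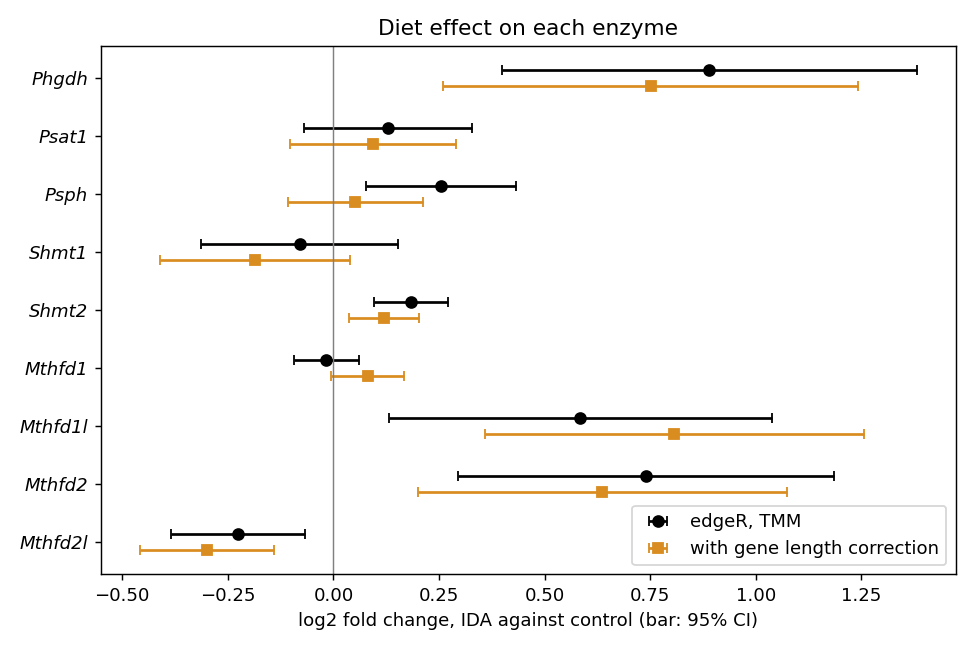
Log2 fold change of each enzyme, IDA against control (horizontal axis), with 95% intervals from edgeR, without (black circles) and with (orange squares) the gene length correction. The intervals of *Phgdh*, *Shmt2*, *Mthfd1l*, *Mthfd2* and *Mthfd2l* exclude 0 in both, and *Psph* moves from 0.25 to 0.052. Only *Mthfd1* changes its side of 0, from -0.017 to 0.081.

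The ratio of paralogs within a mouse does not depend on the scaling of libraries, and 3 ratios were compared between the groups by permutation tests with both tails with 100000 resamples, adjusted over the 3. The ratio of *Mthfd2* to *Mthfd2l* moved most. On the log2 scale it was -0.80 ± 0.44 in control and 0.059 ± 0.71 in IDA mice (SD, n = 10 each), a difference of 0.86 (permutation p = 0.00256, adjusted p = 0.00768), with 9 of 10 IDA mice above the control mean. Per length of transcript, *Mthfd2* was above *Mthfd2l* in 1 of 10 control mice and in 6 of 10 IDA mice.

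The log2 ratio of *Shmt2* to *Shmt1* was 2.46 ± 0.21 in control and 2.74 ± 0.31 in IDA mice (SD, n = 10 each), a difference of 0.28 (permutation test, adjusted p = 0.0312). IDA mouse 4 had the lowest ratio of all mice, at 1.94, and without it the difference was 0.37 (exact permutation test, adjusted p = 0.00253). The mitochondrial to cytosolic ratio of *Mthfd1l* to *Mthfd1* was -5.51 ± 0.45 in control and -4.98 ± 0.54 in IDA mice, a difference of 0.53 (permutation test, adjusted p = 0.0312). Corrected for gene length, the 3 differences were 0.83, 0.32 and 0.65 in the order given (permutation tests, adjusted p = 0.00936, 0.0165 and 0.013). A ratio within a mouse does not remove a trend on GC content, and the ratios were not corrected for it. With length and GC corrected, the log2 fold changes of single genes were 0.66 for *Mthfd2* and -0.050 for *Mthfd2l*. They were -0.057 for *Shmt2* and -0.15 for *Shmt1*, and 0.74 for *Mthfd1l* and -0.0074 for *Mthfd1*. Both smaller differences passed 0.05 only narrowly. That of *Shmt2* to *Shmt1* did not pass without control mouse 1, 3 or 7 or IDA mouse 1, 3, 5, 7 or 9, and that of *Mthfd1l* to *Mthfd1* did not pass without control mouse 1 or 3 or IDA mouse 1, 3, 4 or 5 (exact permutation tests, adjusted p up to 0.0606 and 0.0579).

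**Figure D3:**
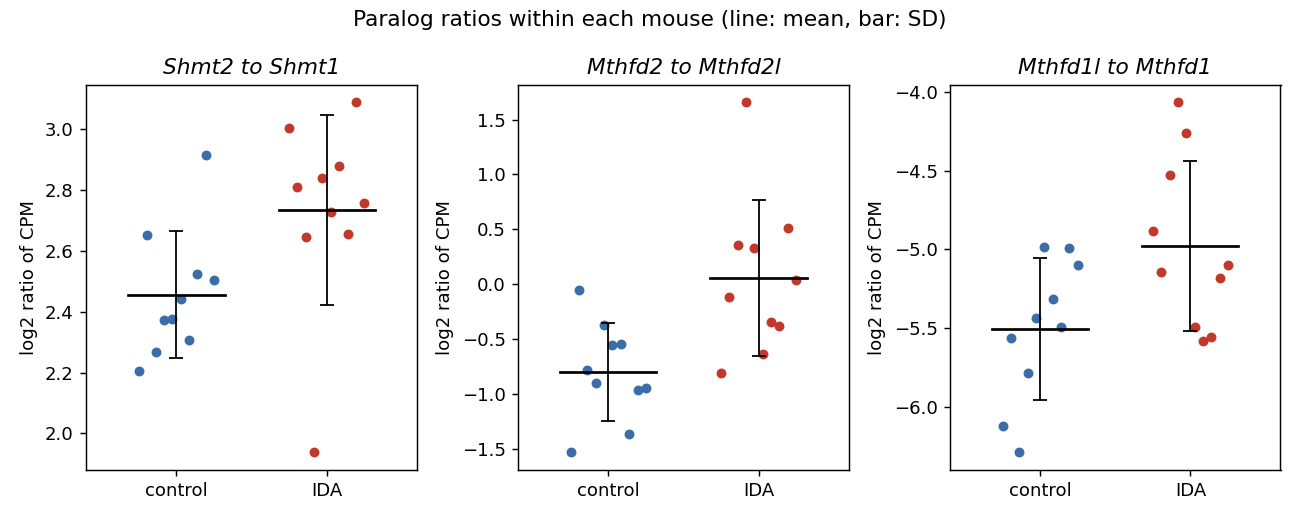
Log2 ratio of CPM of 2 paralogs within each mouse (vertical axes), control in blue and IDA in red, with the mean (line) and SD (bar) of 10 mice. The mean of *Mthfd2* to *Mthfd2l* lies at -0.80 in control and 0.059 in IDA mice, and 1 IDA mouse lies far below its group for *Shmt2* to *Shmt1*.

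The numbers in the names of the libraries fall into 2 ranges, a lower one with 5 control and 7 IDA mice, IDA mouse 4 among them, and an upper one with 5 control and 3 IDA mice. What the numbers stand for is not stated. The samples were sequenced across 2 units, and which libraries went to which is not given in the sources used here. Within the lower and the upper range, the log2 fold change was 0.54 and 1.43 for *Phgdh*, 0.23 and 0.33 for *Psph*, 0.19 and 0.15 for *Shmt2*, 0.26 and 1.03 for *Mthfd1l*, 0.85 and 0.48 for *Mthfd2*, and -0.32 and -0.11 for *Mthfd2l*. Each of the 6 called enzymes thus had the same sign in both ranges. So did *Psat1* (0.16 and 0.048) and *Mthfd1* (-0.0027 and -0.040), which were not called. The calls came from these same mice, so the shared sign is not a separate test of them. By edgeR's quasi-likelihood test within a range, *Shmt2*, *Mthfd2* and *Mthfd2l* passed in the lower range alone and *Phgdh*, *Psph* and *Mthfd1l* in the upper range alone, and whether the ranges differ was not tested. *Shmt1* had 0.058 in the lower range and passed the test in the upper range alone, at -0.31 (adjusted p = 0.0401). With the range as a covariate, an alternative chosen after seeing the data, 6 enzymes were called, beside 9219 of the 13590 tested genes.

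Markers of other cells were examined since whole hearts hold many cell types, and fewer cells of a type and less RNA per cell cannot be told apart in bulk tissue. Of 11 erythroid markers, 5 passed the filter, with 4 higher and 1 lower in IDA. Their summed level over the 10 found in the table lay between 117.1 and 181.9 CPM in control and between 177.1 and 640.2 CPM in IDA hearts. With the mean of the tested erythroid markers as a covariate, 3 enzymes were called, beside 7280 of the 13590 tested genes. The log2 fold changes of *Mthfd2*, *Mthfd1l* and *Mthfd2l* were then 0.25, 0.31 and -0.18 (edgeR adjusted p = 0.54, 0.48 and 0.26). The erythroid markers themselves differed between the groups, so that this fit cannot tell their level apart from diet. Of 10 markers of proliferating cells, 8 were tested and 0 called by edgeR (1 at an unadjusted p below 0.05, 0 called by DESeq2, and 3 higher with the gene length correction), with summed levels of 73.2 to 154.8 CPM in control and 78.0 to 125.4 CPM in IDA hearts. Among 10 tested leukocyte markers 6 were higher and 2 lower, among 9 endothelial markers 5 and 3, among 9 fibroblast markers 3 and 1, among 5 smooth muscle markers 2 and 1, and among 3 tested adipocyte markers 0 and 0 by edgeR (0 at an unadjusted p below 0.05 and 0 called by DESeq2). By the same rule 35.0% of all tested genes were higher and 32.5% lower. With the gene length correction, 5 leukocyte markers were higher and 0 lower, and 5 and 0 of the endothelial markers. The counts were then 3 and 2 for fibroblast, 2 and 0 for smooth muscle, 0 and 0 for adipocyte and 3 and 0 for erythroid markers. Beside these, 4281 of all 13590 tested genes were higher and 3193 lower with that correction. The part of these cells in the results was not tested.

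The enzymes did not vary as 1 block from mouse to mouse. After each group's mean was subtracted, the highest correlation of log2 CPM over the 20 mice was between *Psat1* and *Shmt1* (Pearson's r = 0.73), and it was 0.55 without IDA mouse 4. *Mthfd1l* and *Mthfd2* followed each other with r = 0.56 (0.45 without that mouse), and *Shmt2* and *Mthfd1* with r = 0.50. After correction for gene length the order changed, to 0.74 for *Shmt2* and *Mthfd1* and 0.72 for *Psat1* and *Shmt1*. *Psat1* and *Mthfd2l* ran opposite (r = -0.58, and -0.36 without that mouse). These values are descriptions, and the libraries share depth and length trend.

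**Figure D4:**
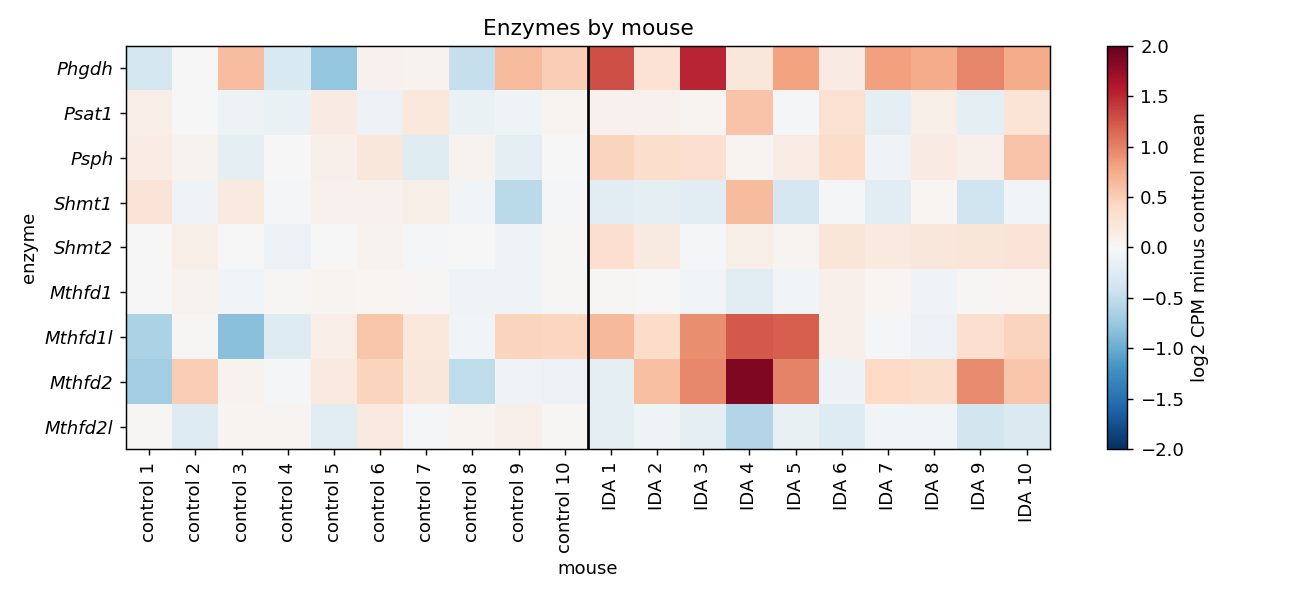
Log2 CPM of each enzyme (rows) in each mouse (columns), as the difference from the mean of the control mice (color, from -2 to 2). *Phgdh* is red in 10 of 10 IDA mice, and IDA mouse 4 is the darkest for *Mthfd2*.

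By the same measure, the tested genes most like *Mthfd2* were *Postn*, *Itgbl1* and *Cilp* (r = 0.83, 0.82 and 0.81 over 20 mice, and 0.73, 0.71 and 0.69 without IDA mouse 4). *Postn* encodes periostin, a matrix protein of activated fibroblasts, and *Cilp* encodes a matrix protein of cartilage and heart. *Postn* had 136.4 CPM in control and 147.9 CPM in IDA hearts, and none of these 3 genes passed edgeR's test between the groups (adjusted p = 0.54, 0.72 and 0.71), unlike *Mthfd2*. The 3 genes most like *Phgdh* were *Adamts19*, *Kazald1* and *Foxo6* (r = 0.68, 0.66 and 0.65, and 0.72, 0.69 and 0.63 without IDA mouse 4). The low read counts of *Phgdh* bear on these values. *Kazald1* and *Foxo6* were higher in IDA hearts (log2 fold changes 0.75 and 0.40, edgeR adjusted p = 9.14e-06 and 0.00403). *Adamts19* did not pass that test (-0.37, adjusted p = 0.13). Both sets of 3 are the highest of a search over all tested genes, which by itself yields high values. Whether they exceed what such a search gives by chance was not tested.

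Around the 9 enzymes, 78 genes of folate, glycine, methionine and serine metabolism and of the ATF4 response were listed, and 64 were tested. Of these 26 were higher, 12 lower and 26 not called, a share of called genes below the 67.5% of all tested genes. Their median log2 fold change was 0.18, against 0.023 over all tested genes. With the gene length correction 25 were higher and 7 lower, beside 4281 higher and 3193 lower of all 13590 tested genes. By both fits 23 of the listed genes were called in the same direction. The counts by list below stand beside 35.0% of all tested genes higher and 32.5% lower without the correction. The genes described singly below passed edgeR's quasi-likelihood test and DESeq2 and kept their direction and call with the gene length correction, apart from *Vldlr* and *Gdf15*. Other genes are named only to make up a count, after their values were seen, and those that lost the call with that correction are given beside it.

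Transcripts of the mitochondrial folate carrier and of the enzyme that oxidizes its one-carbon unit fully were lower, beside the higher *Mthfd2* and *Mthfd1l*. *Slc25a32*, the carrier, fell from 26.3 ± 4.27 to 15.7 ± 3.26 CPM (SD, n = 10 each, log2 fold change -0.74, edgeR adjusted p = 5.17e-06). *Aldh1l2*, a dehydrogenase that releases the unit as carbon dioxide, fell from 42.4 ± 9.00 to 22.5 ± 5.49 CPM (log2 fold change -0.92, edgeR adjusted p = 8.63e-06). For both genes, 10 of 10 IDA mice were below the control mean. Corrected for gene length, their log2 fold changes were -0.70 and -0.53.

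Of 7 tested genes of folate uptake, retention and reduction, 4 were higher (*Folr2*, *Slc19a1*, *Slc46a1* and *Fpgs*) and 1, *Slc25a32*, was lower. With the gene length correction *Folr2* (0.12, adjusted p = 0.19) and *Slc19a1* (0.15, adjusted p = 0.10) lost the call. The proton-coupled folate transporter *Slc46a1* was higher by a log2 fold change of 0.38 (edgeR adjusted p = 0.002). Among 9 other folate-dependent enzymes 3 were higher (*Tyms*, *Mthfs* and its relative listed as *Gm2382*) and 3 lower (*Aldh1l1*, *Aldh1l2* and *Atic*). With the gene length correction *Mthfs*, which DESeq2 did not call, went from 0.28 to -0.054, *Gm2382* from 0.35 to 0.016 and *Aldh1l1* from -0.37 to -0.31 (adjusted p = 0.72, 0.89 and 0.11). *Tyms*, thymidylate synthase, had a log2 fold change of 0.69 (edgeR adjusted p = 0.00454), at 4.12 CPM in control and 6.59 CPM in IDA hearts.

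For glycine, 2 of 5 tested genes were higher (*Gcsh* and *Gcat*) and 1 lower. *Gcsh* went from 0.29 to 0.055 with the gene length correction and lost the call (adjusted p = 0.16). The lower gene was *Amt*, the aminomethyltransferase of the glycine cleavage system, with a log2 fold change of -0.42 (edgeR adjusted p = 0.000513) and -0.66 with the gene length correction. In the methionine cycle and transsulfuration, 3 of 12 were higher (*Ahcy*, *Sardh* and *Pemt*) and 3 lower (*Mtr*, *Ahcyl1* and *Ahcyl2*). *Mtr*, methionine synthase, which takes its methyl group from folate, fell from 149.1 ± 18.1 to 109.3 ± 14.6 CPM (log2 fold change -0.45, edgeR adjusted p = 2.91e-05), and *Ahcyl2*, a relative of S-adenosylhomocysteine hydrolase, by -0.51. Higher were *Sardh*, the sarcosine dehydrogenase of mitochondria, by 0.41, and *Pemt*, a methyltransferase of phospholipid synthesis, by 0.81. The gene length correction gave -0.20 for *Mtr*, -0.18 for *Ahcyl2*, 0.66 for *Sardh* and 0.48 for *Pemt*. For *Mtr*, the correction for length with GC gave -0.10 (adjusted p = 0.22), and for *Slc46a1* 0.11 (adjusted p = 0.33).

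Of 7 tested serine-consuming enzymes, 2 were higher and 1, *Srr*, was lower. *Ptdss2*, which exchanges serine into phosphatidylserine, had a log2 fold change of 0.37 (edgeR adjusted p = 4.69e-06), and *Sdsl*, related to serine dehydratase, one of 0.60 (edgeR adjusted p = 5.15e-06). The gene length correction gave 0.28 for *Ptdss2* and 0.33 for *Sdsl*, and 0.17 for *Sdsl* with GC content corrected as well. With length alone corrected 4 were higher, and *Srr* went from -0.21 to -0.060 (adjusted p = 0.20). Among 8 tested carriers of serine and glycine 1 was higher (*Sfxn3*, a relative of the mitochondrial serine carrier) and 2 were lower (*Slc38a1* and *Slc38a2*). With the gene length correction 3 were higher and neither *Slc38a1* nor *Slc38a2* passed (log2 fold changes -0.14 and -0.091).

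Of 16 tested genes of the ATF4 list, 11 were higher and 1, *Vldlr*, was lower, beside 67.5% of all tested genes called and 35.0% higher. The median log2 fold change of the list was 0.44. With the gene length correction 8 were higher, beside 55.0% of all tested genes called and 4281 of 13590 higher. Of these 8, 6 had been called higher without the correction, and the median of the list was 0.27. *Vldlr*, at 8308 bp the longest of the 16 genes, turned from -0.36 to 0.16 (adjusted p = 0.03). *Asns*, asparagine synthetase, rose from 6.65 ± 2.15 to 12.8 ± 3.85 CPM (SD, n = 10 each, log2 fold change 0.95, edgeR adjusted p = 7.41e-05). *Trib3*, *Slc7a5* and *Atf5* were higher by 0.63, 0.53 and 0.47, and by 0.34, 0.45 and 0.11 with gene length and GC both corrected. In IDA mouse 4, the highest for *Mthfd2*, 6 of the 16 genes were the highest of the IDA group, and control mouse 6 was the highest of its group for 7 of them. *Gdf15*, a stress-induced secreted factor singled out after its values were seen, had 31.5 CPM in IDA mouse 4 against 6.78 CPM in the next IDA mouse. DESeq2 did not call *Gdf15* (adjusted p = 0.38), nor did edgeR with the gene length correction (adjusted p = 0.14). With the mean of the erythroid markers as a covariate, *Asns*, *Slc7a5*, *Tyms* and *Slc46a1* no longer passed the test (log2 fold changes 0.51, 0.018, 0.37 and 0.33).

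**Figure D5:**
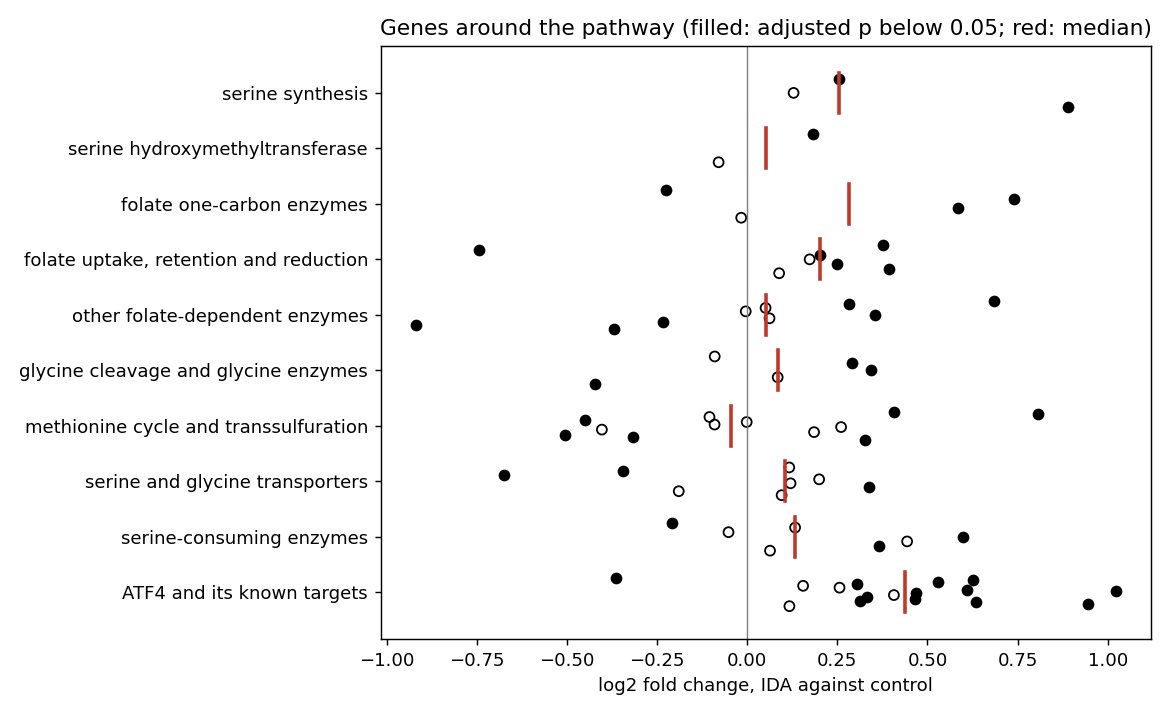
Log2 fold change, IDA against control (horizontal axis), of the 9 enzymes (upper 3 rows) and of the tested genes in each list around them. Filled points passed edgeR's test at an adjusted p below 0.05, and red bars are medians. Without the gene length correction, as drawn, the ATF4 list has the highest median, 0.44 (with it 0.27, against 0.36 for the folate one-carbon enzymes), and *Aldh1l2* and *Slc25a32* lie farthest to the left.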

How the data were processed

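The authors sequenced poly-A selected RNA of frozen heart tissue in read pairs, used STAR for alignment to mm10 and samtools for removal of PCR duplicates, and deposited counts per gene of read pairs on exons, made with featureCounts (version 1.4.5-p1) without strand and not normalized. The deposited table also gives exonic lengths. The study left out a mouse of each group for contamination without naming it, so all 20 mice were kept. The 13590 genes at 1 CPM or more in 10 or more mice were normalized by TMM and tested in edgeR (version 4.0.16, R 4.3.3) with diet as the only term. CPM are scaled to read pairs on tested genes, and log2 CPM used a prior count of 2. DESeq2 (version 1.42.0) was an alternative, as was the study's rule of p below 0.01 in both packages. The gene length correction subtracted a loess curve (span 0.5, degree 1) on log2 exonic length from each mouse and entered it as offsets. GC content came from GENCODE transcripts (99.3% of tested genes). Standard errors were taken from the quasi-likelihood F statistic. No 2 libraries agreed within sampling noise (chi-square per degree of freedom at least 1.51). Of these steps, only the edgeR fit, without and with the gene length correction, was run on simulated counts. Genes around the pathway were named when they passed edgeR, DESeq2 and the gene length correction in 1 direction, up to 15 by size, together with genes whose exons overlap a member and the 3 genes most like *Phgdh* and *Mthfd2*. Members, lists and tests were chosen with earlier results of these data known. RefSeq was the source of promoters. Counting error and the spread between mice set the precision of genes with few reads.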

Additional observations from a re-analysis of the deposited data

Results flagged for a closer look

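The lowest or highest mouse lay far from the rest of its group in 4 of 24 sets of 10 values examined (9 enzymes and 3 ratios in each group). The measure was the gap to its neighbor over the range of the group, taken on log2 CPM or log2 ratios, while CPM are printed here. On that log2 scale *Mthfd2* in IDA mouse 4, at 29.7 CPM with the next IDA mouse at 16.1 CPM, was not among the 4. Chance alone gives about 1 in 20 such sets. Of the 4, IDA mouse 4 held 3. It had 33.4 CPM of *Shmt1*, with the next IDA mouse at 21.9 CPM, and 79.6 CPM of *Mthfd1*, with the next lowest at 88.4 CPM. Its log2 ratio of *Shmt2* to *Shmt1* was 1.94, and the next lowest was 2.64. The remaining set was *Shmt1* in control mouse 9, at 14.6 CPM, with the next lowest control mouse at 20.3 CPM. The reason for these values was not tested.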

How the results depend on the processing

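Of 97 values of the 9 enzymes under alternatives that kept all mice, 86 kept their direction and their side of the threshold, as did 8 of 9 values of the ratios. Of the counts of called enzymes, pathway genes and all genes, 34 of 36 were within 1.5 times the main count. The exceptions follow. The gene length correction gave 0.052 for *Psph* and 0.081 for *Mthfd1*, library size as a covariate 0.22 for *Psph*, and upper-quartile factors 0.010 for *Mthfd1*. The erythroid covariate gave 0.31 for *Mthfd1l*, 0.25 for *Mthfd2* and -0.18 for *Mthfd2l*, and 3 called enzymes, beside 7280 of the 13590 tested genes. Correction for gene length and GC content, added later, gave 0.088 for *Psph*, -0.057 for *Shmt2* and -0.050 for *Mthfd2l*. It gave 3 called enzymes, beside 6319 of the 13590 tested genes. In each case the cause was not tested. Same-numbered mice were not paired, since 3 of 10 pairs had a correlation of deviations above 0.1 (range -0.28 to 0.26). The replicate block gave 0.56 for *Mthfd1l* (adjusted p = 0.0621), an adjusted p of 0.10 for the ratio of *Mthfd1l* to *Mthfd1* (difference 0.53, exact permutation), and 5 called enzymes. Leaving out 1 mouse at a time moved *Mthfd1l* between 0.48 and 0.66 and *Mthfd1* between -0.039 and 0.0041 (the latter without IDA mouse 4), and the ratios of *Shmt2* to *Shmt1* between 0.24 and 0.37 and of *Mthfd1l* to *Mthfd1* between 0.43 and 0.59, with 5 to 6 enzymes called. A filter of 5 CPM removed *Phgdh* and *Mthfd1l*. The 16 other named genes kept their direction in all 494 values, and 7 of these lost the call. Read pairs were fewest for *Phgdh* and *Mthfd1l*.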
